A study of Mus musculus with 4 samples.

Results

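The common gamma chain receptors are the surface receptors for interleukins 2, 4, 7, 9, 15 and 21, and their genes were compared between CD4+CD8+ double-positive (DP) cells of mouse tumours and of normal thymus. The members were chosen by gene symbol, from a list of 8 receptor genes, and not by their measured values. Probe sets were named for 7 of the 8 genes (Il2ra, Il15ra, Il2rb, Il4ra, Il7r, Il9r and Il21r), of 18193 genes named on the array, and these 7 had 13 probe sets. Il2rg, the gamma chain itself, was not analysed here, because the annotation used named no probe set for it. All 7 measured members lie on autosomes (chromosomes 2, 7, 11 and 15).

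RNA was measured on 4 Affymetrix Mouse 430 2.0 arrays. The tumour group held 2 arrays of DP cells from peripheral tumour (thymoma) that over-expresses Notch1-IC, the active intracellular part of the Notch1 receptor, with genotype T-ALL. The normal group held 2 arrays of DP cells from thymus with genotype WT, and the background of all 4 samples is given as WT C57/BLACK6. The sources used here give neither the age and number of the animals nor the promoter that drives Notch1-IC. They do not say that the arrays of a group come from separate animals, so p-values measure the spread between these arrays alone, possibly a technical one. Tissue site cannot be told apart from tumour state, because tumour cells were peripheral and normal cells thymic.

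Each receptor of this family is built from a chain that is specific to its cytokine and from the shared gamma chain. The specific chain carries the kinase JAK1 and the gamma chain the kinase JAK3, and cytokine binding leads mainly to phosphorylation of STAT5, STAT6 or STAT3. Il2ra and Il15ra encode alpha chains, which raise affinity for the cytokine and carry no JAK, and Il2rb encodes the beta chain that the receptors for interleukin 2 and interleukin 15 share. In the thymus, Il2ra and Il7r are known from the double-negative precursors, where interleukin 7 supports survival, and Il7r is known to be low in DP cells and to return at the single-positive stage.

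The sequences directly before the start sites are shown for Il2ra and Il7r, which rose, and for Il4ra and Il21r, which fell, so that genes with the same direction can be set side by side. They are the 250 bases before the start on the gene's own strand, from RefSeq with build GRCm38.p6. Such windows were at hand for 7 of the 8 listed genes, all but Il2rb. Il2ra lies at chr2:11642542-11642791 (plus strand), Il7r at chr15:9529877-9530126 (minus strand), Il4ra at chr7:125552021-125552270 (plus strand) and Il21r at chr7:125603179-125603428 (plus strand). Capitals mark motif matches.
Il2ra: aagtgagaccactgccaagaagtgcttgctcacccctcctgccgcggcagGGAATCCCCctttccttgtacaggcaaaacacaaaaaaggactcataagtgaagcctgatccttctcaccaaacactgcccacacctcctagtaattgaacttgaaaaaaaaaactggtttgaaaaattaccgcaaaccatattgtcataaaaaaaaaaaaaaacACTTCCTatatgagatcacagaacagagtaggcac
Il7r: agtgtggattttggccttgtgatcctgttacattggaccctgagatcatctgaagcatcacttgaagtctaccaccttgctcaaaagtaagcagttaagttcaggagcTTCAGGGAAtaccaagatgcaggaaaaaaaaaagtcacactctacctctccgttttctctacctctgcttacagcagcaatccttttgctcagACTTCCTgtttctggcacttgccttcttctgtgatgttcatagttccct
Il4ra: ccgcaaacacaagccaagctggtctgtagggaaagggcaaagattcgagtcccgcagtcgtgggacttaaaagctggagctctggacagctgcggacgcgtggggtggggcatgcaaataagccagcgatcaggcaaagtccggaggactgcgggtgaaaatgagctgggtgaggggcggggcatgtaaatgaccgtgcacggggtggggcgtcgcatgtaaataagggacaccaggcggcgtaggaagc
Il21r: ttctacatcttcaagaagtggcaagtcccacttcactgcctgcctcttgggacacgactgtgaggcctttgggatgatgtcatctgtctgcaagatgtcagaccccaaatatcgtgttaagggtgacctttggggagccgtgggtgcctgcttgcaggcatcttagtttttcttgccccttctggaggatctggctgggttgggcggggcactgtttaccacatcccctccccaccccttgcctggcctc

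Motifs of 4 kinds were searched on both strands, the ETS and NF-kB motifs after the sequences had been seen. The ETS motif AGGAAGT was found in the windows of Il2ra (29 to 35 bases before the start) and Il7r (43 to 49 bases before), both in the reverse orientation ACTTCCT, and in 7.69% of the 32851 windows of the same length over all genes. The NF-kB motif GGAATNCCC was found 192 to 200 bases before the Il2ra start and in 0.645% of all windows. The STAT motif TTCNNNGAA, which STAT proteins bind, was found 134 to 142 bases before the Il7r start and in 7.02% of all windows. The core TGGGAA, bound by RBPJ, the DNA-binding partner of Notch1-IC, was in none of these 4 windows and in 21.6% of all windows. Among the 7 genes with a window, it was found only for Il2rg (236 to 241 bases before the start), whose level was not analysed. Il4ra and Il21r had no match to any of the 4 motifs. The same held for Il9r and for both windows of Il15ra, so lack of a match was not particular to the genes that fell. A match is a description of letters and not a shown binding site.

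Il2ra, Il2rb and Il7r were higher in tumour DP cells than in normal DP cells, Il4ra and Il21r were lower, and Il15ra did not pass the test. Il2ra was 58.2-fold higher and Il7r 6.45-fold higher, and Il4ra was 4.98-fold and Il21r 2.79-fold lower, each on its most intense probe set (n = 2 arrays per group). The sizes of the Il2ra and Il2rb rises are uncertain, because their normal arrays were dim. A second Il2ra probe set was 12.1-fold higher. Il9r also passed the test, at levels at or below background on all 4 arrays, so no change can be read from it. Of the 13 probe sets, 7 passed higher and 3 lower (limma with a trend and robust prior, Benjamini-Hochberg over 45037 probe sets, threshold 0.05), against 11.3% higher and 11.5% lower (22.8% in all) of all probe sets. Without Il9r, 6 probe sets of 3 genes passed higher. Arrays of the groups did not overlap for any of the 13 probe sets, with tumour higher for 9 and lower for 4, against 27.6% higher and 29.1% lower (56.7% in all) among all probe sets. The median absolute log2 fold change was 2.60 over the 13 and 0.75 over all probe sets.

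The call depends on the variance prior. With limma's default prior over the same probe sets, 0 of 45037 passed (0.0%), with 11337 at an unadjusted p below 0.05, and adjusted p for the 10 member probe sets called above ranged between 0.0684 and 0.105. With 1 probe set per gene (18193 tests), 4 members passed higher and 2 lower with the trend and robust prior, against 29.7% of all genes, and 3 higher and 1 lower with the default prior, against 6.38%. Both counts of higher members include Il9r, from which no change can be read. Il2rb and Il21r did not pass with that default prior (limma adjusted p = 0.0792 and 0.0534). For a single probe set, an exact permutation test of 2 arrays against 2 cannot go below p = 0.333 (two-sided). These arrays measure bulk RNA, so fewer cells of a type and less RNA per cell cannot be told apart.

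**Figure D1:**
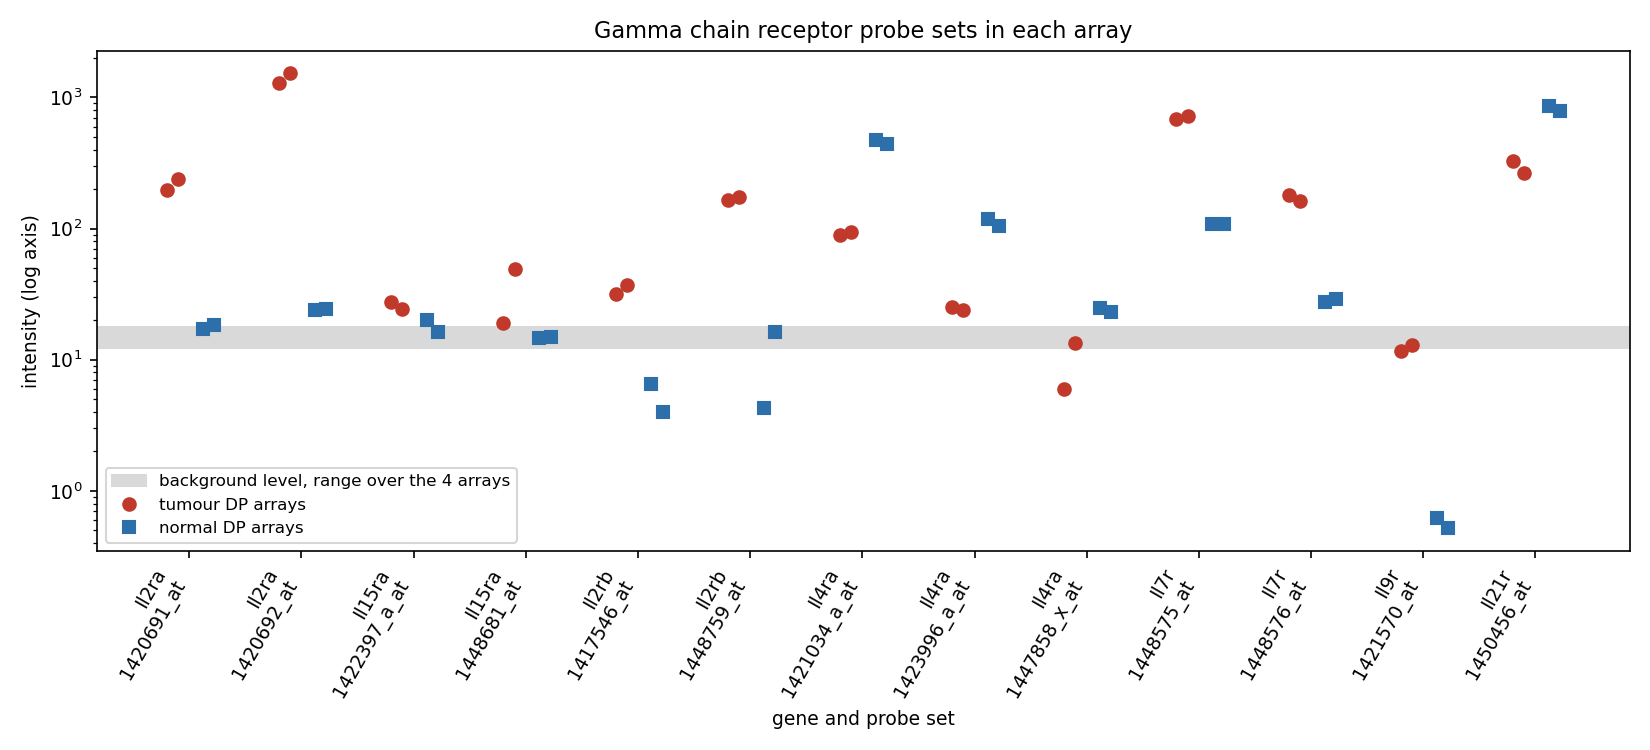
Intensity of each of the 13 member probe sets (log axis) on each array, with tumour DP arrays as red circles on the left and normal DP arrays as blue squares on the right of each position. The grey band is the range of the background level over the 4 arrays, 12.3 to 17.8. Il2ra and Il7r lie higher in tumour arrays, Il4ra and Il21r lower, and all 4 values of Il9r lie at or below the background of their own array.

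Among the alpha chains, Il2ra (CD25, the chain that makes the interleukin 2 receptor high in affinity) had intensities of 1298 and 1522 in tumour DP cells, against 24.1 and 24.3 in normal DP cells, on probe set 1420692_at. Both normal arrays lay just above their background levels of 16 and 12.3, and both tumour arrays far above them. The log2 fold change was 5.86 ± 0.15 (moderated SE, n = 2 per group, limma adjusted p = 2.93e-08), and 0.191% of all probe sets had a larger one. The SE here and below is limma's moderated one, set by the spread of the probe set itself and of others at similar level. A second Il2ra probe set, 1420691_at, read 198.2 and 238.4 in tumour cells, against 17.3 and 18.5 in normal cells. Its log2 fold change was 3.60 ± 0.25 (limma adjusted p = 6.82e-06), in the same direction and smaller, and the differences between single tumour and normal arrays (3.42 to 3.79) did not meet those of the first (5.74 to 5.98). Its normal arrays lay only just above background.

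Il15ra, the alpha chain that presents interleukin 15 to the beta and gamma chains, had 27.5 and 24.5 in tumour cells, against 20.2 and 16.1 in normal cells, on probe set 1422397_a_at. The log2 fold change of 0.52 ± 0.46 did not pass (limma adjusted p = 0.509), and it was -0.08 when arrays were scaled to the hybridization controls. On probe set 1448681_at, tumour replicate 2 read 49.4 and tumour replicate 1 read 18.9, against 14.6 and 14.9 in normal cells. This log2 fold change was 1.05 ± 0.56 (limma adjusted p = 0.244). It rested on tumour replicate 2: without tumour replicate 1 it was 1.74 (adjusted p = 0.0477), and without tumour replicate 2 it was 0.36 (adjusted p = 0.726).

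Il2rb, the beta chain of the interleukin 2 and 15 receptors, read 163.7 and 172.6 in tumour cells, against 4.30 and 16.2 in normal cells, on probe set 1448759_at. Both tumour arrays were well above background, normal replicate 1 was below its level of 16, and normal replicate 2 was slightly above its level of 12.3. The log2 fold change was 4.33 ± 0.55 (limma adjusted p = 0.000311), with a log2 SD of 1.4 between the normal arrays. The size depends on the dim normal arrays, at 3.37 without normal replicate 1, 5.29 without normal replicate 2 and 2.85 with an offset of 16 before log2. Probe set 1417546_at read 31.8 and 37.3 in tumour cells, against 6.53 and 4.03 in normal cells. Both normal arrays were below background there, so Il2rb was at least 2.46-fold higher (limma adjusted p = 0.0143). That call ended when either tumour array was left out (adjusted p = 0.085 without replicate 1 and 0.119 without replicate 2).

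Among the cytokine-specific signalling chains, Il7r (CD127, shared by the receptors for interleukin 7 and TSLP) read 678.6 and 719.5 in tumour cells, against 107.8 and 109.0 in normal cells, on probe set 1448575_at. All 4 arrays were far above background. The log2 fold change was 2.69 ± 0.13 (limma adjusted p = 6.61e-07). Probe set 1448576_at read 181.5 and 162.5 in tumour cells, against 27.7 and 28.9 in normal cells. It gave nearly the same log2 fold change, 2.60 ± 0.23 (limma adjusted p = 3.13e-05), so the probe sets of Il7r did not differ in direction or beyond their spread.

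Il4ra, the chain that binds interleukin 4 and, with Il13ra1, interleukin 13, read 89.7 and 93.9 in tumour cells, against 471.4 and 443.2 in normal cells, on probe set 1421034_a_at. All 4 arrays were above background. The log2 fold change was -2.32 ± 0.14 (limma adjusted p = 3.2e-06). Probe set 1423996_a_at read 25.4 and 23.8 in tumour cells, against 118.5 and 105.0 in normal cells, with a log2 fold change of -2.18 ± 0.27 (limma adjusted p = 0.00026). The third, 1447858_x_at, read 5.97 and 13.5 in tumour cells, against 24.9 and 23.3 in normal cells, near background, and its log2 fold change of -1.42 ± 0.66 did not pass (adjusted p = 0.175). All 3 probe sets of Il4ra are of classes that may bind more than 1 transcript.

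Il21r, the specific chain for interleukin 21, read 327.7 and 266.6 in tumour cells, against 865.9 and 782.6 in normal cells. Both groups were far above background. The log2 fold change was -1.48 ± 0.13 (limma adjusted p = 2.66e-05), on the only probe set of this gene. Il9r, the specific chain for interleukin 9, read 11.7 and 13.0 in tumour cells, against 0.62 and 0.52 in normal cells. Each of these values was at or below the background level of its own array. Its fitted difference (limma adjusted p = 0.0344) is thus not given as a fold, and its call ended without any single array (adjusted p between 0.0872 and 0.146).

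**Figure D2:**
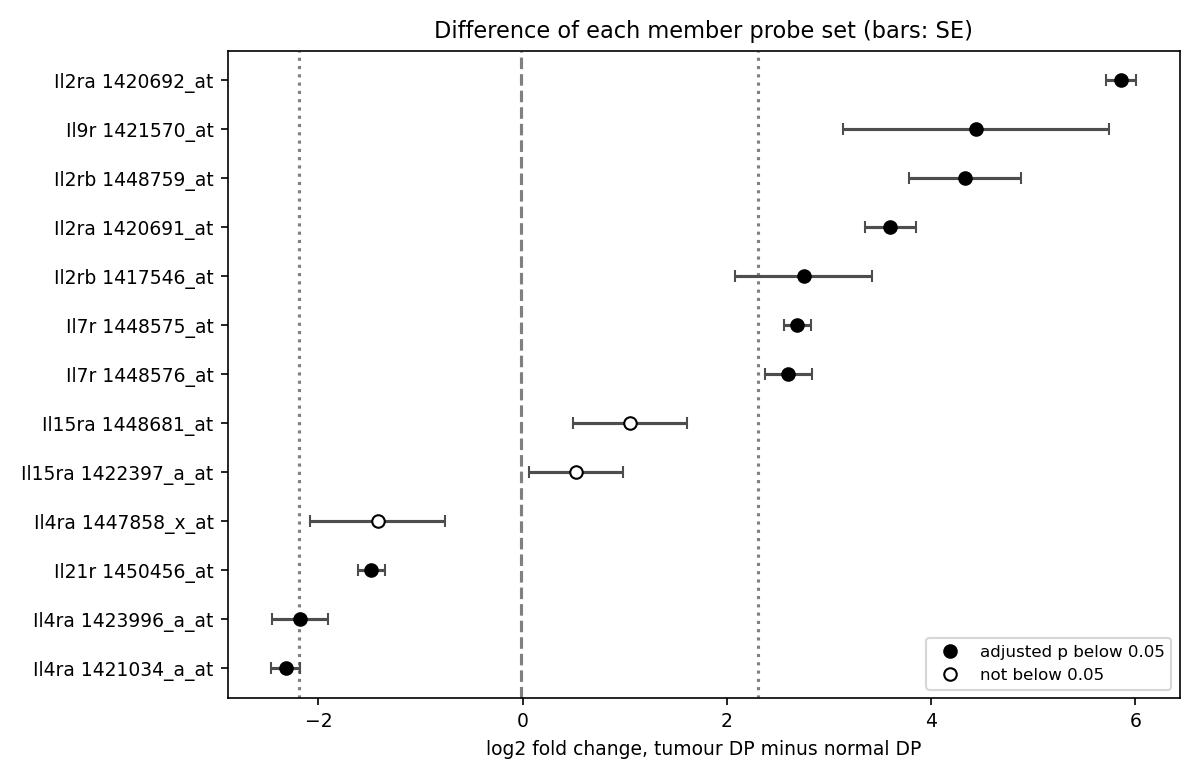
Log2 fold change of each member probe set, tumour DP minus normal DP, with bars for the moderated SE, filled where the adjusted p was below 0.05. The dashed line is the median of all probe sets (-0.02) and the dotted lines their 5th and 95th percentiles (-2.19 and 2.30). Both probe sets of Il2ra, Il2rb and Il7r lie beyond the upper dotted line, and Il4ra probe set 1421034_a_at beyond the lower one.

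Ordered by their log2 fold change on the most intense probe set, the 6 genes above background on at least 1 array of each group ran from Il2ra (5.86) through Il2rb (4.33), Il7r (2.69), Il15ra (0.52) and Il21r (-1.48) to Il4ra (-2.32). The ranges of differences between single tumour and normal arrays lay apart for each pair of neighbours in that order. This holds at the most intense probe sets only. Il2ra probe set 1420691_at (3.42 to 3.79) lay within the range of Il2rb probe set 1448759_at (3.33 to 5.33). Il2rb probe set 1417546_at (2.28 to 3.21) covered the range of Il7r probe set 1448575_at (2.64 to 2.74). The place of Il2rb rests on normal arrays of which 1 was below background, and with the offset its value was 2.85, beside 2.52 for Il7r. Il9r was at or below background and has no place in the order.

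The members form 2 pairs of chromosomal neighbours. In the RefSeq order of protein-coding genes, Il15ra is the next gene after Il2ra on chromosome 2, and Il21r the next after Il4ra on chromosome 7. In the first pair the neighbours differed: the pair differences of Il2ra (5.74 to 5.98) lay far above those of Il15ra (0.28 to 0.77). Of the flanking genes, Rbm17, a splicing factor, was higher by 0.64 ± 0.07 (limma adjusted p = 0.000153), and Fbh1, a DNA helicase, differed by -0.42 ± 0.13 (adjusted p = 0.0521). In the second pair both receptors fell. There Nsmce1, a subunit of the SMC5/6 complex, on the Il4ra side fell by 0.48 ± 0.08 on the log2 scale (adjusted p = 0.00243). On the Il21r side, Gtf3c1, a subunit of RNA polymerase III factor TFIIIC, was higher by 0.74 ± 0.15 (adjusted p = 0.00517). These genes were chosen by position after the member values were known.

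**Figure D3:**
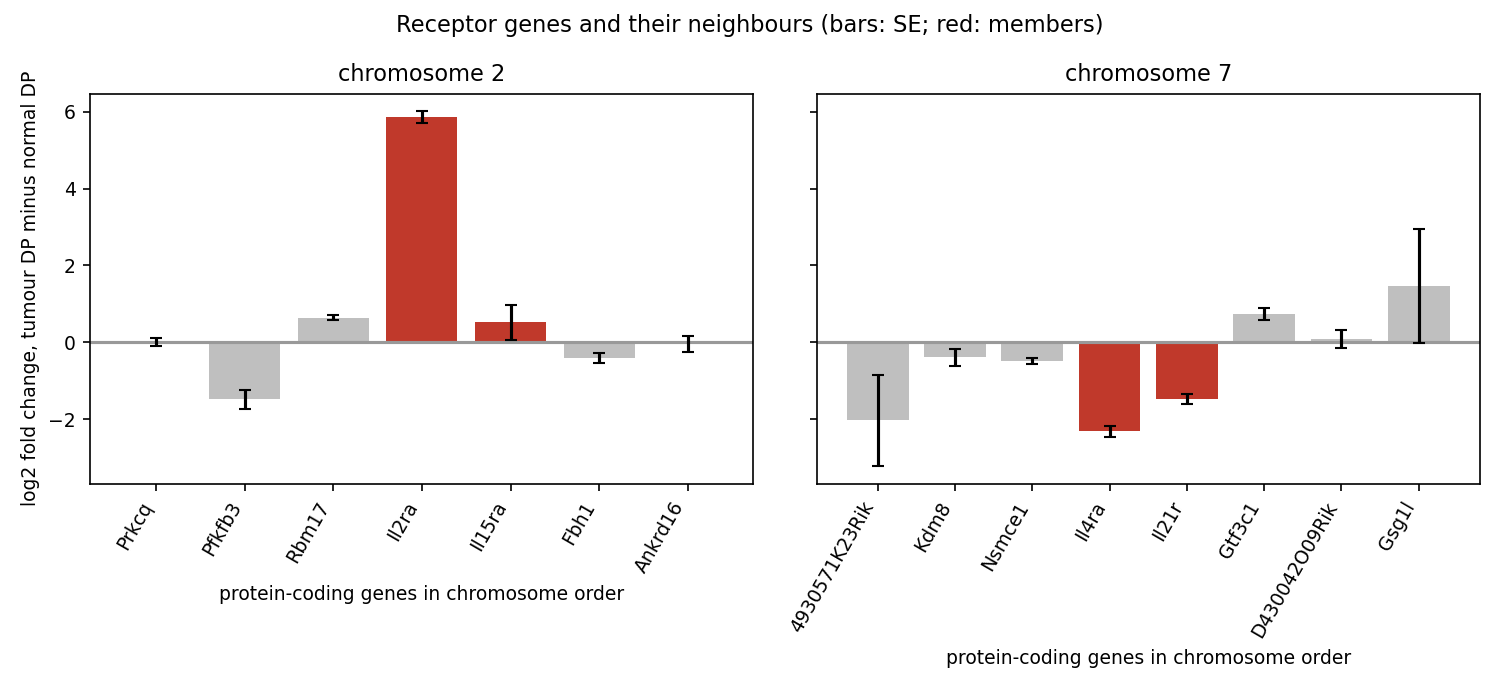
Log2 fold change, tumour DP minus normal DP, of the measured protein-coding genes around Il2ra and Il15ra (chromosome 2) and around Il4ra and Il21r (chromosome 7), in chromosome order with equal spacing. Bars show the difference from 0, whiskers the moderated SE, and red the receptors. Il2ra (5.86) stands far above Il15ra (0.52), and Il4ra (-2.32) and Il21r (-1.48) both lie below 0.

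The genes with the pattern closest to a member were found by the distance between log2 values over the 4 arrays. For Il2ra these were Ccl8, a chemokine (distance 0.46), Trgv1, a T-cell receptor gamma segment (0.77), and Sertad4 (0.82). Ccl8 read 1434 and 1328 in tumour cells, against 20.6 and 19.5 in normal cells. For Il4ra they were Nfkbiz, an atypical inhibitor of NF-kB (0.32), Ephb6, an ephrin receptor (0.32), and Padi4 (0.35). With 4 arrays in 2 groups, such closeness describes levels only.

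Markers of other cells that use these receptors moved in the same arrays, and their part in the results was not tested. Markers were read at their most intense probe set, where 16.3% of all 18193 genes were called higher and 11.7% lower. T-lineage markers were above background on all 4 arrays for 8 of 8 measured genes, with 7 lower and a summed intensity of 25863 to 26168 in tumour cells, against 53851 to 54029 in normal cells. Cd8a and Cd4, which define DP cells, differed by -2.75 ± 0.07 and -2.09 ± 0.11 (limma adjusted p = 2.08e-08 and 1.4e-06). Cd3d differed by only -0.22 ± 0.05 (adjusted p = 0.0168). NK cells are known for high Il2rb, and of 8 measured NK markers 4 were higher and 0 lower. Their summed intensity was 5490 to 5512 in tumour cells, against 1178 to 1200 in normal cells, most of it from Gzma. Gzma (2.28 ± 0.07), Gzmb (3.15 ± 0.28), Klrd1 (1.69 ± 0.43) and Nkg7 (1.55 ± 0.21) were the genes that were higher on the log2 scale (limma adjusted p between 5.75e-08 and 0.0187), while the NK receptor Ncr1 was at or below background on all 4 arrays. Regulatory T cells are known for Il2ra. Of their 5 markers, 3 were higher and 1 lower, summed to 2797 to 3005 in tumour cells, against 1425 to 1452 in normal cells, most of it from Ikzf2. Ctla4 (3.43 ± 0.21) and Ikzf2 (1.21 ± 0.08) were higher on the log2 scale and Il10 was at least 12.3-fold higher (limma adjusted p between 2.93e-06 and 7.87e-05). Tnfrsf18 fell by 2.65 ± 0.16 on the log2 scale (adjusted p = 3.05e-06), and Foxp3, their defining factor, was at or below background on all 4 arrays. Il4ra and Il21r are also known from B cells. Of 7 B cell markers, 1 was higher and 1 lower, near the shares of all genes. Their sums were 204.3 to 213.6 in tumour cells, against 371.3 to 378.2 in normal cells, where most of it came from Cd79b. Cd22 was higher by 2.63 ± 0.41 (limma adjusted p = 0.00114) and Cd79b fell by 2.42 ± 0.18 on the log2 scale (adjusted p = 1.11e-05), while Cd79a and Pax5 were at or below background on all 4 arrays.

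Of 11 macrophage and monocyte markers, 8 were higher and 0 lower, against 16.3% higher and 11.7% lower of all genes. Their summed intensity was 2031 to 2210 in tumour cells, against 115.1 to 150.8 in normal cells, and 0 of the 11 were at or below background on all 4 arrays. Of 10 neutrophil markers, 8 were higher and 0 lower, with sums of 2189 to 2232 in tumour cells, against 199.3 to 265.6 in normal cells. Of 7 dendritic cell markers, 3 were higher (Itgax, H2-Aa and H2-Ab1) and 0 lower. Their sums were 679.9 to 1011 in tumour cells, most of it from H2-Aa, against 183.6 to 188.9 in normal cells. Flt3, Zbtb46, Xcr1 and Siglech did not pass and lay near or below background. Of 6 mast cell markers, which matter for Il9r, 0 passed in either direction, with sums of 44.8 to 45.2 in tumour cells, against 39.2 to 45.6 in normal cells, and 4 of the 6 were at or below background on all 4 arrays. None of the neutrophil or dendritic markers was so on all 4. The X-inactivation RNA Xist was lower by at least 375-fold in tumour cells (limma adjusted p = 1.46e-08). The Y-linked genes Eif2s3y (1.89 ± 0.11), Uty (1.00 ± 0.26) and Kdm5d (0.65 ± 0.19) were higher on the log2 scale (adjusted p between 3.2e-06 and 0.0327) and above background on all 4 arrays. Xist read 5968 and 5578 in normal cells, so the normal arrays held both Xist and Y-linked RNA. In tumour cells Xist was at or below background. The labels give no sex, so a difference in sex between the groups cannot be told apart from tumour state. Its part in the results was not tested. For beta-actin, the 3' control probe set over the 5' one was 2.46 and 2.53 in tumour cells, against 1.28 and 1.20 in normal cells. For Gapdh this ratio was 1.84 and 1.85 in tumour cells, against 0.912 and 0.897 in normal cells. The shift runs with the groups and cannot be told apart from tumour state, and what it does to the results was not tested. The share of probe sets above background ranged from 51.0% to 59.0% over the arrays. Notch1 itself was 7155 and 6417 in tumour cells, against 1104 and 1098 in normal cells.

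Other genes of the pathway were read at their most intense probe set, where 16.3% of all 18193 genes were called higher and 11.7% lower, with a median log2 fold change of 0.09. Of 80 listed genes 74 were measured, and 19 were higher and 14 lower. None of the 6 gamma chain cytokines passed. Il4 differed by 1.70 ± 0.99 (limma adjusted p = 0.293) and Il15 by -0.84 ± 1.40 (adjusted p = 0.753), and Il2, Il9, Il15 and Il21 were at or below background on all 4 arrays. Of 5 partners of these receptors, 0 passed. Il13ra2, a decoy receptor for interleukin 13, differed by 1.27 ± 1.04 and Il13 by 1.24 ± 1.37, with limma adjusted p = 0.473 and 0.612. Il13ra2 was at or below background on all 4 arrays. Il13 and Il4 were each above it on only 1 tumour array and no normal array, so no change can be read from these genes. The receptor chain Crlf2, which pairs with Il7r for TSLP, was well above background in both groups and differed by -0.18 ± 0.14 (adjusted p = 0.441).

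Of 9 measured kinases and STATs, 1 was higher and 3 lower, and their median was -0.04. Jak1, the kinase of the specific chains, read 822.1 and 811.0 in tumour cells, against 2585 and 2364 in normal cells. Its log2 fold change was -1.60 ± 0.08 (limma adjusted p = 1.1e-06), and 2 of its 3 probe sets were lower. Tyk2, a related kinase, was higher by 1.16 ± 0.19 (adjusted p = 0.00182), and Stat4 fell by 0.81 ± 0.17 (adjusted p = 0.00719). Stat5b, which carries much of the signal from interleukin 2 and 7, read 784.4 and 706.5 in tumour cells, against 1224 and 1312 in normal cells, a log2 fold change of -0.77 ± 0.09 (adjusted p = 0.000247). Jak3, the kinase of the gamma chain, differed by 0.07 ± 0.37 (adjusted p = 0.931).

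Of 10 feedback and adaptor genes, 5 were higher and 2 lower, with a median of 0.97. Socs3, an inhibitor of JAK signalling, read 1147 and 1061 in tumour cells, against 150.1 and 198.0 in normal cells, and was higher by 2.68 ± 0.14 (limma adjusted p = 1.44e-06). Cish, a STAT5-induced inhibitor, read 168.7 and 102.6 in tumour cells, against 36.4 and 31.3 in normal cells (1.96 ± 0.29, adjusted p = 0.000829). Both normal arrays were below background for the adaptor Gab2 and the inhibitor Socs2. Gab2 was at least 3.20-fold (adjusted p = 0.00491) and Socs2 at least 3.83-fold higher (adjusted p = 0.00276). Only 1 of 3 Gab2 probe sets was called (log2 fold changes from 0.8 to 3.03), and only 1 of 6 for Socs2 (-1.36 to 2.57). Socs1, another inhibitor, went the other way and read 153.0 and 159.3 in tumour cells, against 422.6 and 391.4 in normal cells (-1.38 ± 0.13, adjusted p = 4.83e-05).

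Of 12 genes that STAT5 or gamma chain cytokines are known to regulate, 6 were higher and 3 lower, with a median of 0.18. Gzmb, a granzyme, was higher by 3.15 ± 0.28, Myc by 2.77 ± 0.12 and the cytokine Osm by 1.80 ± 0.26, and Ccnd3, a G1 cyclin, fell by 1.26 ± 0.07 (limma adjusted p between 4.38e-07 and 0.000707 for the 4). Of 10 regulators of receptor genes, 4 were higher and 2 lower, with a median of 0.09. Notch1, whose intracellular part the tumour over-expresses by its label, was higher by 2.62 ± 0.07, and Runx3 by 1.5 ± 0.18. Foxo1, an activator of Il7r, was higher by 1.45 ± 0.11, and Gfi1, a repressor of Il7r, fell by 0.73 ± 0.11 (limma adjusted p between 4.48e-08 and 0.000974 for the 4). Another probe set of Runx3 gave -2.50 and did not pass. Of 4 Foxo1 probe sets only 1 was called higher, and their log2 fold changes ranged from 0.13 to 1.45. Ets1, the other regulator called lower, differed by -0.3 ± 0.08 (limma adjusted p = 0.018). Several probe sets were present for 45 pathway genes, and for 6 of them the calls went both ways: Stat3, Bcl2, Mcl1, Pim1, Ccnd2 and Runx1. For Tyk2, Il6ra and Csf2rb, only 1 of 2 probe sets was called.

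Of 22 measured cytokine receptors that do not use the gamma chain, 3 were higher and 4 lower, with a median of 0.00. Il6ra was higher by 2.72 ± 0.38 (limma adjusted p = 0.000559). Csf2rb, the shared chain for interleukin 3 and GM-CSF, was at least 5.28-fold (adjusted p = 0.000802) and Csf3r, the G-CSF receptor, at least 1.99-fold higher (adjusted p = 0.0319), both known from myeloid cells. Ifngr1, a chain of the interferon gamma receptor, fell by 1.36 ± 0.08 (adjusted p = 2.7e-06).

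**Figure D4:**
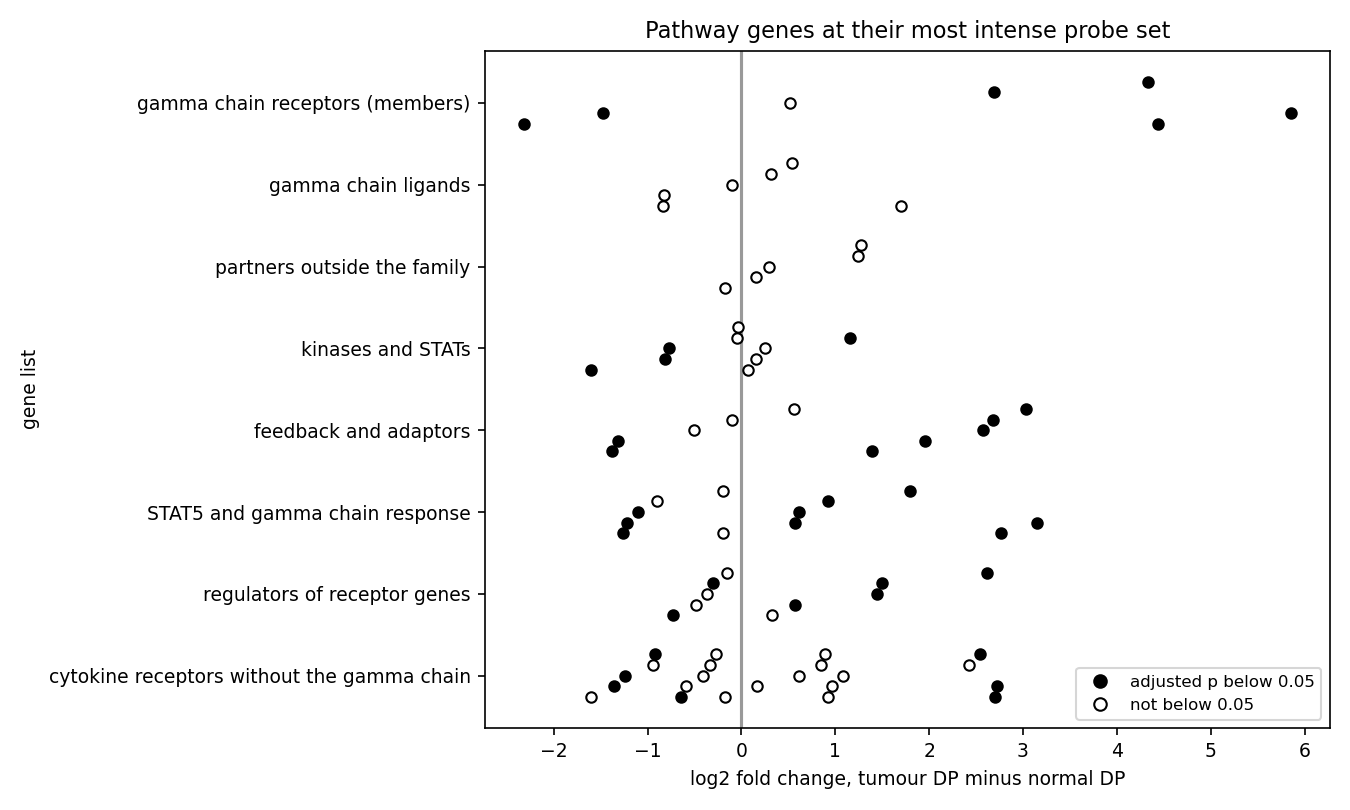
Log2 fold change, tumour DP minus normal DP, at the most intense probe set of the 7 measured members (top row) and of the 74 measured genes in 7 pathway lists, filled where the adjusted p was below 0.05. Points are spread within a row for legibility. The ligands hold no filled point, and the members span from -2.32 to 5.86.

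**Figure D5:**
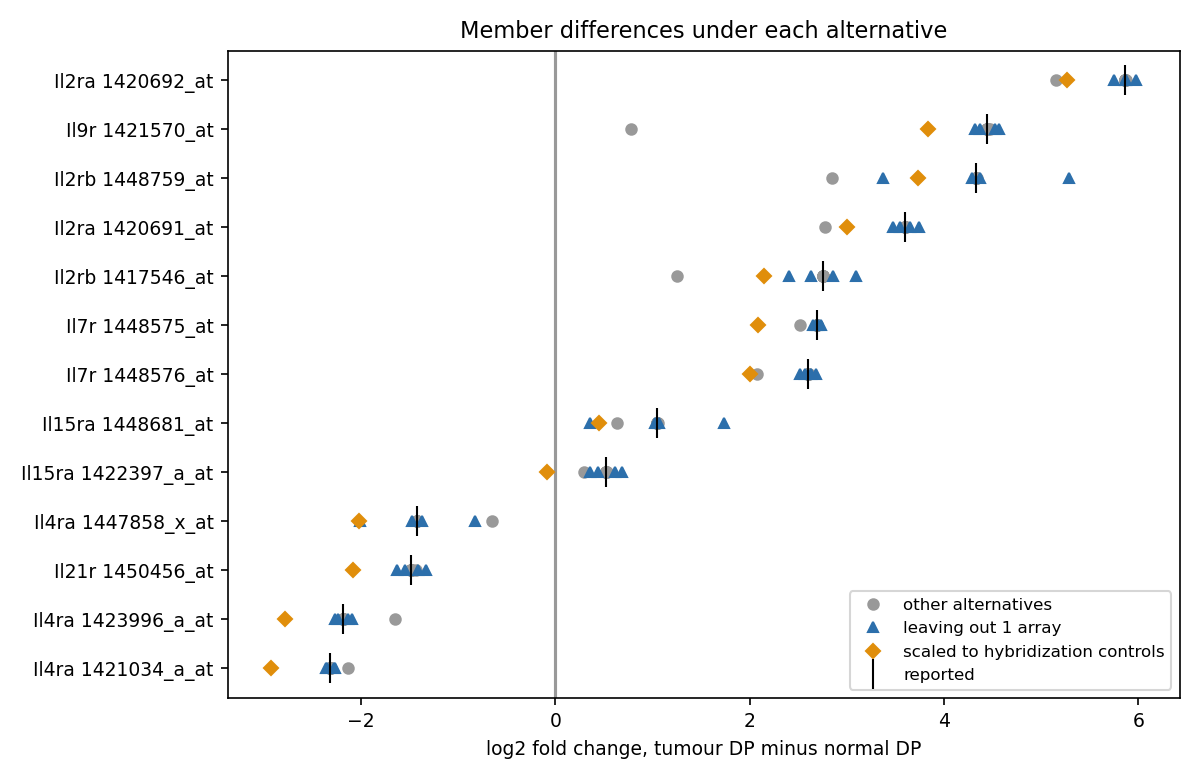
Log2 fold change of each member probe set as reported (black bars) and under each alternative: leaving out 1 array (blue triangles), scaling to the hybridization controls (orange diamonds) and the others (grey circles). Il15ra probe set 1422397_a_at is the only one to cross 0 (-0.08), and Il9r, at or below background, moves the most.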

How the data were processed

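Biotin-labelled cRNA was made from total RNA, per the labels' protocols. The deposited values are linear intensities, 1 for each of 45101 probe sets on each array. Per the submitters' processing notes they were made with RMA, though values below 1 are unusual for it. Groups were taken from the titles; the sample type label calls all 4 arrays tumour, against the title, source and genotype of the 2 normal ones. Log2 was taken with no offset and no filter. Differences were tested with limma 3.58.1 (R 4.3.3; trend and robust prior) over 45037 probe sets that are not controls, adjusted by Benjamini-Hochberg. The members, lists, test and alternatives were chosen with earlier results of these data known, as was the choice of this prior over the default one. Named pathway genes were, per list, the 4 called genes that changed most, or 2 if no gene passed. Socs1, Jak3, Crlf2, Ets1, Cd4, Cd8a and Cd3d were added after their values were seen. Gene symbols came from the platform annotation of GEO where it gives 1 symbol (34945; several for 932, none for 9160). Background was set per array as the maximum of 27 bacterial control probe sets that carried no spike. A fold against a group whose arrays both stayed within it is a lower bound. Data were simulated on these 45037 probe sets, with 200 changes placed on bright ones (log2 mean 7 or higher). There, 90.0% of log2 changes of 1 and 100.0% of those of 2 were recovered, with 11 false calls. Noise was drawn with a shared variance for probe sets of similar level, which is what the trend prior assumes. The simulation thus cannot decide between this prior and the default one. It does not cover dimmer probe sets, among them 9 of the 13 of the members.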

Additional observations from a re-analysis of the deposited data

How the results depend on the processing

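Median subtraction, renewed quantile normalization and the trend prior without its robust step kept each of the 13 member probe sets on its side of the threshold. With the default prior over probe sets, 0 member probe sets passed higher and 0 lower (7 and 3 at an unadjusted p below 0.05), and 0 pathway genes passed higher and 0 lower (19 and 13 unadjusted). With 1 probe set per gene, 4 of the 7 member genes passed higher with the trend and robust prior. With the default prior, 3 passed higher (Il2ra, Il7r and Il9r) and 1 lower (Il4ra), beside 11 higher and 5 lower pathway genes. Without the _s_at, _x_at and _a_at probe sets, which are all of Il4ra's, 1 member probe set was lower. Scaling to the BioB, BioC and BioD controls, which moved the median of all probe sets from -0.02 to -0.63, gave 13 higher and 29 lower pathway genes, beside 2074 higher and 11539 lower of all 45037 probe sets (5084 and 5189 without it), and -0.08 for Il15ra probe set 1422397_a_at; Il4ra probe set 1447858_x_at then passed (-2.02) and Il9r did not (adjusted p = 0.0504). An offset of 16 before log2 lowered Il2ra probe set 1420692_at to 5.15 and 1420691_at to 2.78. It lowered Il2rb probe set 1448759_at to 2.85, 1417546_at to 1.25 and Il9r to 0.78 (limma adjusted p = 0.0725). With the replicate number as a block, Il2ra probe set 1420692_at kept 5.86 and every member probe set its side of the threshold; same-numbered arrays deviated together with r = 0.25 over 10772 probe sets, but the labels do not say that the number marks a pair. Leaving out 1 array ended calls for Il9r and for Il2rb probe set 1417546_at only; in those fits the lone array of a group is assumed to vary like the others. Signal over background limits Il9r, Il15ra and the normal arrays of Il2ra and Il2rb: the background levels of the 4 arrays ranged from 12.3 to 17.8 intensity units.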
